A study of Mus musculus with 111 samples.

Results

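The 10 genes described here belong to the circadian clock of the mouse or are read directly by it: the Period genes Per1, Per2 and Per3, the activators Npas2 and Clock, the repressors Nr1d1 and Nr1d2, the output factors Dbp and Tef, and Ciart. They were taken by name, and a gene was measured where the array held probesets (groups of probes read as 1 value) annotated to that gene alone. Of the 10 genes, 9 had such probesets, 23 in all, and Ciart was not analysed here. These 9 were part of 15707 genes with at least 1 probeset of their own.

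The levels came from whole lungs, left and right together, of male C57BL6/J mice bought as young adults. Bleomycin groups received 2 U/kg of bleomycin in 50 µl as 1 intratracheal dose, and saline groups received 50 µl of saline by the same route. Lungs were taken after 1, 2 or 7 days, or after 14, 21, 28 or 35 days, from 8 mice per treatment and day. The day 14 saline group held 7, since the authors had left out 1 array, so that 56 bleomycin and 55 saline arrays were used, each from another mouse. A whole lung mixes many cell types, so fewer cells of a type and less RNA per cell cannot be told apart in any value below. The hour of the day at which lungs were taken is not given in the sources used here.

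The clock is a loop of transcription and repression that runs in nearly every cell with a period of about a day. CLOCK, or its relative NPAS2, pairs with BMAL1 (encoded by Arntl) and switches on the Per and Cry genes, Nr1d1, Nr1d2 and Dbp, whose proteins then act back: PER and CRY block the activators, and the REV-ERB receptors encoded by Nr1d1 and Nr1d2 silence Arntl, Npas2 and Clock. Activator genes and Dbp, Per or Nr1d1 therefore peak at opposite times of the day in mouse lung, and a level of any of them depends on the hour of sampling. Ciart encodes a further repressor of CLOCK and BMAL1.

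CLOCK and BMAL1 bind the E-box, and DBP and TEF bind the D-box. RefSeq promoter windows of the GRCm38.p6 build were available for 9 of the 10 genes, each of 300 bases with 250 bases before the transcript start. Per2 had no window and was not searched. Searched on both strands, the E-box letters CACGTG were found in a window of Per1, in both windows of Tef and in that of Ciart, and 7.15% of all 32851 windows held them. The D-box letters TTANGTAA, which do not overlap with the E-box, were found only in the window of Per3, which held them at 2 places, against 2.323% of all windows. The bases before the start of the 4 windows of Per1, Per3 and Tef are shown because they hold these matches, in capitals. No match in another window says only that the letters are not in it.
Per1, chr11:69098699-69098948, plus strand, E-box 166 bases before the start: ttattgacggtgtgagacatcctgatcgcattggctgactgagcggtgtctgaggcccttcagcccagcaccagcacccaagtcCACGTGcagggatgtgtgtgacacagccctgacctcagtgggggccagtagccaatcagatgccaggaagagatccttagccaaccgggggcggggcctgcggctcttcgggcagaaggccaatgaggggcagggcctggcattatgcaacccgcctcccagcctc
Per3, chr4:151044666-151044915, minus strand, D-boxes 205 and 158 bases before the start: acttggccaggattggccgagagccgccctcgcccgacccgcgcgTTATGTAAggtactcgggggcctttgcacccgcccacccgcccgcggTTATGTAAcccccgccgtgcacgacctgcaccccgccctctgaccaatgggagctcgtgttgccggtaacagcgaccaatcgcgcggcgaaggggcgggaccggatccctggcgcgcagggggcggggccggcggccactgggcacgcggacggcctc
Tef, chr15:81802423-81802672, plus strand, E-box 127 bases before the start: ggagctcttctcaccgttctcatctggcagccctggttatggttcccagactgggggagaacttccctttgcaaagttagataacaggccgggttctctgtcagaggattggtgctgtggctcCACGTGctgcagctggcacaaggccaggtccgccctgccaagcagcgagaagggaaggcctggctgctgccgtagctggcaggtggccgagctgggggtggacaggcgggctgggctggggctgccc
Tef, chr15:81811164-81811413, plus strand, E-box 138 bases before the start: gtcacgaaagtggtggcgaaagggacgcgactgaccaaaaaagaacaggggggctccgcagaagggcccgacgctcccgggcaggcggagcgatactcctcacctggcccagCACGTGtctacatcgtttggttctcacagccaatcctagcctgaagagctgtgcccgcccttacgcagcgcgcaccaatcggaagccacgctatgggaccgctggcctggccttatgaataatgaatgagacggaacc

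The first question was whether clock genes differed between bleomycin and saline lungs of the same day. Levels are log2 values normalized by RMA (robust multi-array averaging), so a difference of 1 is a 2-fold change, and a gene was called where limma's moderated test gave an adjusted p under 0.05 over all 15707 genes of that day. Of 63 comparisons of 9 genes on 7 days, 30 were lower and 6 were higher in bleomycin lungs, 27 did not pass, and none exceeded 2-fold. Of all genes, 0.497% were called with a fold over 2 on day 1, 1.12% on day 2, 3.33% on day 7, 3.16% on day 14, 1.46% on day 21, 0.713% on day 28 and 1.04% on day 35. Lower calls came from all 9 genes, while higher calls came only from Clock, Npas2 and Per2. The plot of levels in each lung shows both the bleomycin groups and the movement of the saline groups from day to day.

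**Figure D1:**
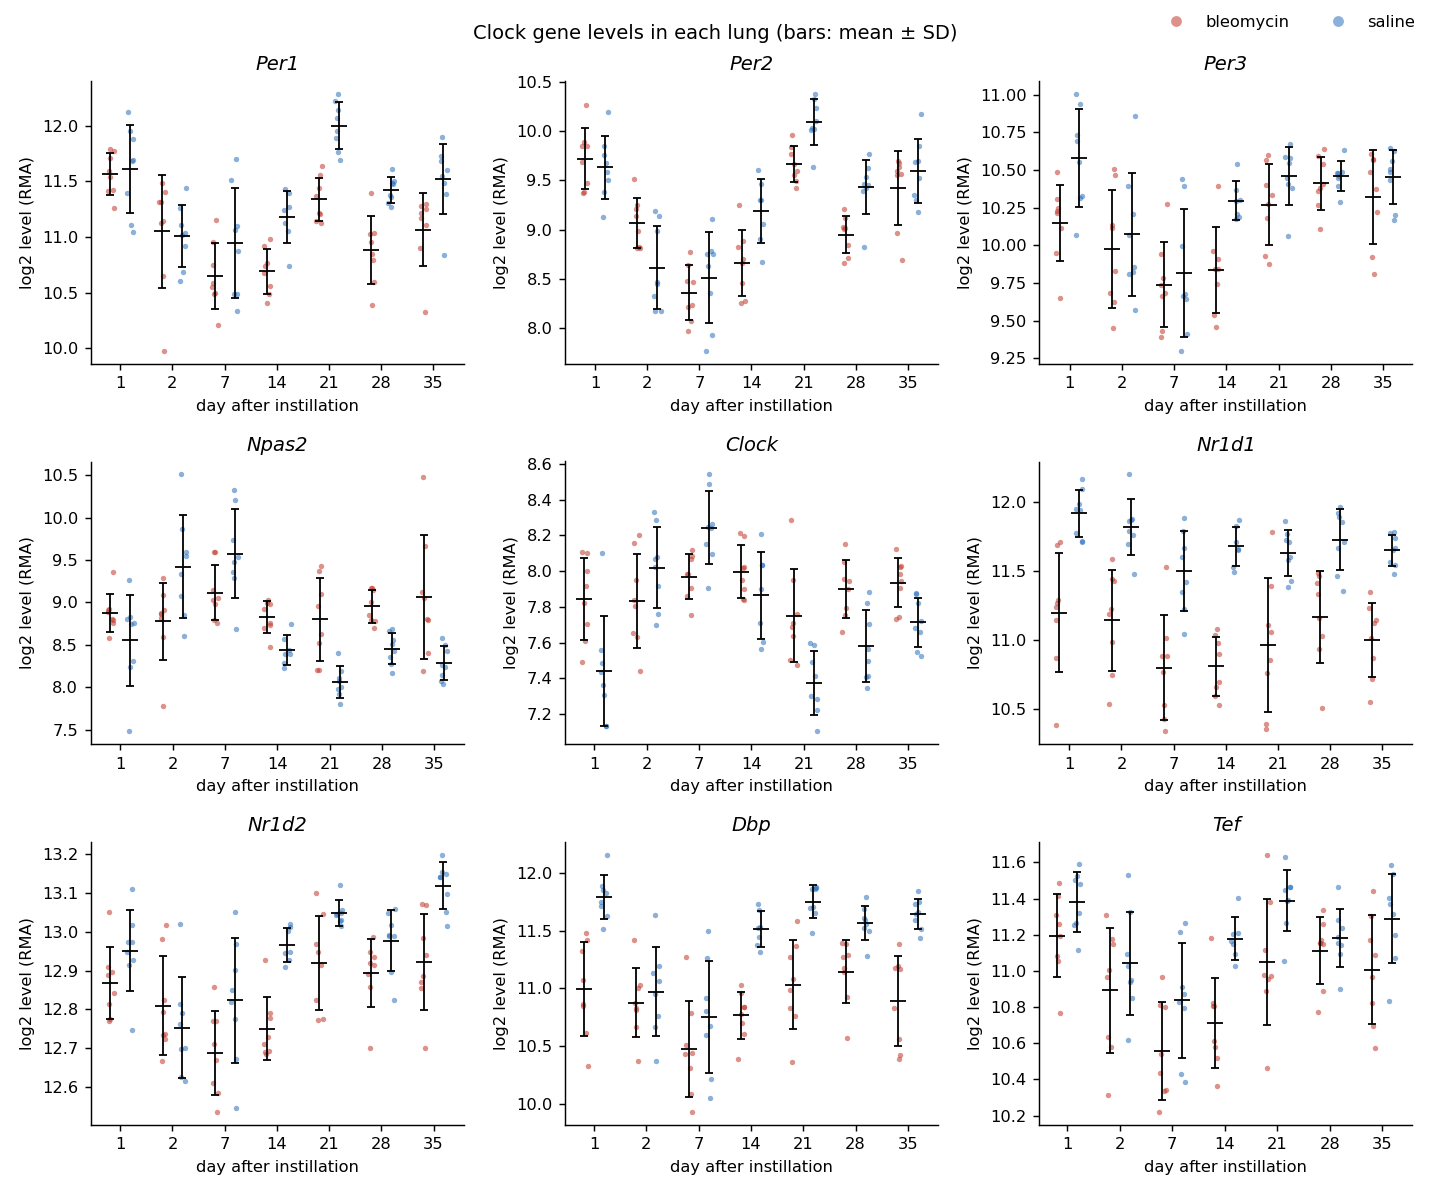
Log2 RMA level (vertical axes) of the 9 measured clock genes in each lung by day after dosing (horizontal axes), bleomycin in red on the left and saline in blue on the right of each day, with the mean and SD of each group as bars (n = 8, and 7 for saline on day 14). Nr1d1 lay lower in bleomycin groups on every day, whereas Npas2 and Clock crossed from lower on day 7 to higher on day 21, the day on which their saline means were lowest.

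On day 1, 1 of the 9 genes was higher (Clock) and 3 were lower (Per3, Dbp and Nr1d1), where 14.7% of all genes were higher and 16.7% lower. On day 2, 1 was higher (Per2; background 14.2%) and 2 were lower (Npas2 and Nr1d1; background 13.1%). On day 7, 4 were lower (Npas2, Clock, Nr1d1 and Nr1d2; background 21.9%) and 0 were higher (background 25.7%), and all 9 differences of that day were negative, so none was higher by limma with or without moderation or at an unadjusted p under 0.05. The count was largest on day 14, when 7 genes were lower (all but Npas2 and Clock; background 19.7%) and 0 were higher by limma, also at an unadjusted p under 0.05 (background 21.9%; 1, Npas2, with array weights). On day 21, 6 were lower (all but Per3, Npas2 and Clock; background 18.9%) and 2 were higher (Npas2 and Clock; background 20.5%). On day 28, 4 were lower (Per1, Per2, Dbp and Nr1d1; background 11.8%) and 1 was higher (Clock; background 11.5%). On day 35, 4 were lower (Per1, Dbp, Nr1d1 and Nr1d2; background 12.5%) and 1 was higher (Npas2; background 16.9%). The median log2 difference of the 9 genes was -0.47 on day 14, against -0.01 over all genes, and -0.34 on day 21, against 0.00 over all genes. On days 1 and 28 it was -0.08.

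Nr1d1, which encodes the receptor REV-ERB alpha, was lower in bleomycin lungs on all 7 days, and 162 of the 15707 genes, 1.03%, were called lower on all 7. On day 14 its level ran from 10.53 over a median of 10.80 to 11.08 in bleomycin lungs, against 11.50, 11.66 and 11.87 in saline lungs. Every bleomycin lung lay below every saline lung on that day, as was true for 6.66% of all genes. The difference was -0.87 ± 0.15 (SE, n = 8 and 7, adjusted p = 9.27e-07), or 1.83-fold lower. On day 35 the groups did not overlap either, with 10.55 to 11.35 in bleomycin lungs and 11.48 to 11.79 in saline lungs (background 1.76%). The smallest difference was on day 28, -0.56 ± 0.14 (adjusted p = 0.00238), when 5 of 8 bleomycin lungs lay below the lowest saline lung. The response of Nr1d1 did not pass the test for a difference between days (adjusted p = 0.902), which does not show that it was the same. Its SD was 0.21 to 0.48 over the days in bleomycin lungs and 0.11 to 0.29 in saline lungs, larger in bleomycin lungs on each day, a difference that was not tested. The annotated Nr1d1 gene (chr11:98767932-98775377, GRCm38.p6) shares 1075 bases with Thra, and only 1 probeset read Nr1d1, so no second probeset could be set beside it.

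Nr1d2, the gene of REV-ERB beta, had smaller differences. Its lungs differed least within groups, with a residual SD of 0.10. The only probeset of Nr1d2 had a mean level of 12.89, at the 97.9th percentile of all probesets. Levels on day 14 ran from 12.69 over 12.72 to 12.93 in bleomycin lungs, against 12.91, 12.95 and 13.02 in saline lungs. A total of 7 of 8 bleomycin lungs lay below all saline lungs, and the difference was -0.22 ± 0.05 (adjusted p = 0.000587), or 1.16-fold lower. It was also lower on day 35 (-0.20 ± 0.05, adjusted p = 0.00212), day 21 (-0.13 ± 0.05, adjusted p = 0.0373) and day 7 (-0.13 ± 0.05, adjusted p = 0.0253). Set against all saline lungs, it was at -0.03 on day 35 (adjusted p = 0.723) and -0.03 on day 21 (adjusted p = 0.653). The day 7 call was lost without the third saline array of that day, which correlated least with its group (adjusted p = 0.0502), and in a fit of that day alone (adjusted p = 0.12), and the day 21 call once each array's median was subtracted (adjusted p = 0.0757).

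Dbp, a D-box activator and one of the most strongly cycling genes of mouse tissues, was lower on 5 of the 7 days. On day 1 bleomycin lungs had 10.33, 10.97 and 11.48 (lowest, median and highest), against 11.51, 11.79 and 12.16 in saline lungs. The groups did not overlap (background 1.46%), and the difference was -0.80 ± 0.15 (adjusted p = 3.43e-05), or 1.74-fold lower. They did not overlap on day 14 (background 6.66%) and day 35 (background 1.76%) either, with differences of -0.75 ± 0.16 (adjusted p = 6.1e-05) and -0.75 ± 0.15 (adjusted p = 7.45e-05). On day 2 the values were 10.37, 10.85 and 11.42 in bleomycin lungs and 10.37, 11.01 and 11.64 in saline lungs, a difference of -0.10 ± 0.15 (adjusted p = 0.698). Day 7 did not pass either, at -0.28 ± 0.15 (adjusted p = 0.129). On these 2 days the saline lungs had their lowest Dbp means, 10.97 on day 2 and 10.75 on day 7, while the other saline means were 11.51 to 11.79. The response differed between days (adjusted p = 0.0157, where 48% of all genes passed that test). The other probeset of Dbp gave the same calls on all 7 days.

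Tef, the relative of Dbp that also binds the D-box, was lower on days 14 and 21. Day 14 levels were 10.37, 10.71 and 11.18 in bleomycin lungs, against 11.03, 11.16 and 11.40 in saline lungs, and 7 of 8 bleomycin lungs lay below all saline lungs. The difference was -0.47 ± 0.13 (adjusted p = 0.00204), or 1.38-fold lower. On day 21 it was -0.34 ± 0.13 (adjusted p = 0.0234), and the call was lost in a fit of that day alone (adjusted p = 0.0503). The probesets of Tef disagreed: 1424175_at was lower on 4 days, whereas 1450184_s_at was lower on none and higher on day 2 (0.46 ± 0.09, adjusted p = 2.48e-05) and day 7 (0.25 ± 0.09, adjusted p = 0.0123).

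**Figure D2:**
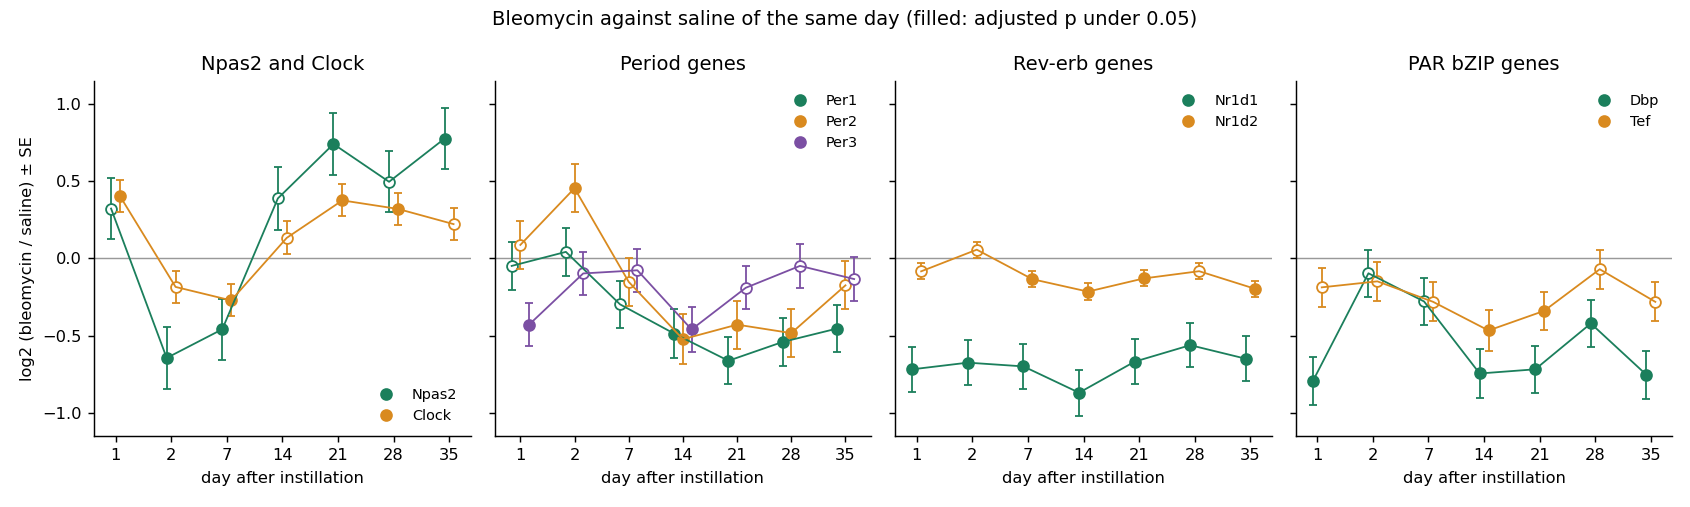
Log2 difference of bleomycin minus saline on each day (vertical axis, with the SE as bars) against the day after dosing, in 4 panels by role, filled where the adjusted p was under 0.05. Nr1d1 stayed between -0.87 and -0.56, Dbp approached 0 only on day 2, and Npas2 lay at -0.65 on day 2 and at 0.78 on day 35.

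Among the Period genes, whose proteins repress CLOCK and BMAL1, Per1 was lower on days 14, 21, 28 and 35. On day 21 its levels were 11.12, 11.29 and 11.64 in bleomycin lungs, against 11.69, 12.01 and 12.29 in saline lungs. No bleomycin lung reached the lowest saline lung (background 2.53%), and the difference was -0.66 ± 0.15 (adjusted p = 0.00025), or 1.58-fold lower. Set against all 55 saline lungs it was -0.05 (adjusted p = 0.8). On days 1 and 2 the differences were -0.05 ± 0.15 (adjusted p = 0.844) and 0.04 ± 0.15 (adjusted p = 0.876). The mean response of days 7 and 14 was lower than that of days 1 and 2, by -0.39 ± 0.15 (adjusted p = 0.0393). In that comparison 3 clock genes, Per1, Per2 and Nr1d2, were lower (background 15.8%) and none was higher by limma or at an unadjusted threshold of 0.05 (background 20.4%). The day 35 call was lost without the third bleomycin array of that day (adjusted p = 0.0866).

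Per2 was the only Period gene that was higher on any day. On day 2 it had 8.82, 9.06 and 9.52 in bleomycin lungs, against 8.17, 8.46 and 9.19 in saline lungs, and all 8 bleomycin lungs lay above the saline median. The difference was 0.46 ± 0.16 (adjusted p = 0.02). Its other 2 probesets were higher too, by 0.77 ± 0.13 (adjusted p = 2.23e-06) and 0.56 ± 0.11 (adjusted p = 3.15e-05). From day 14 the used probeset was lower, at -0.52 ± 0.16 on day 14 (adjusted p = 0.00548), -0.43 ± 0.16 on day 21 (adjusted p = 0.0209) and -0.48 ± 0.16 on day 28 (adjusted p = 0.0157). None of these 3 calls was made by the other 2 probesets, which lay between -0.18 and 0.10 on those days, so the lower calls of Per2 rest on 1 probeset. Its response changed by -0.61 ± 0.16 between days 1 and 2 and days 7 and 14 (adjusted p = 0.00112).

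Per3 was lower on days 1 and 14. Day 14 levels were 9.46, 9.84 and 10.39 in bleomycin lungs, against 10.17, 10.30 and 10.54 in saline lungs, a difference of -0.46 ± 0.15 (adjusted p = 0.00703). On day 1 it was -0.43 ± 0.14 (adjusted p = 0.0135). Of its 6 probesets, 4 were lower on both days, and 1460662_at and 1421086_at on neither. The annotated Per3 gene (chr4:150997018-151044707) shares 4714 bases with Uts2. The response of Per3 did not pass the test for a difference between days (adjusted p = 0.293).

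For both activators, as for Per2, calls in both directions were made over time. Npas2 encodes the partner that can stand in for CLOCK. On day 2 its levels were 7.78, 8.87 and 9.29 in bleomycin lungs, against 8.61, 9.44 and 10.51 in saline lungs, a difference of -0.65 ± 0.20 (adjusted p = 0.00918, and 0.0635 in a fit of that day alone). On day 21 they were 8.20, 8.79 and 9.43 in bleomycin lungs, against 7.80, 8.04 and 8.41 in saline lungs, a difference of 0.74 ± 0.20 (adjusted p = 0.00154), or 1.67-fold higher. Day 35 gave 0.78 ± 0.20 (adjusted p = 0.0015), with 1 bleomycin lung at 10.48 and a bleomycin SD of 0.73, against 0.20 in saline lungs. On day 28 all 8 bleomycin lungs, at 8.70 to 9.17, lay above all 8 saline lungs, at 8.17 to 8.69 (background 2.13%), yet the fitted difference of 0.50 ± 0.20 missed the threshold (adjusted p = 0.058). The day 7 call (-0.46 ± 0.20, adjusted p = 0.0486) was lost without the third saline array of that day (adjusted p = 0.131) and with the replicate number as a block (adjusted p = 0.0514). The response of Npas2 differed between days (adjusted p = 5.66e-06), and its mean on days 21, 28 and 35 was higher than on days 7 and 14, by 0.71 ± 0.18 (adjusted p = 0.00186). Npas2 and Clock were the 2 clock genes higher in that comparison (background 11.9%), and none was lower by limma or at an unadjusted threshold of 0.05 (background 14.9%). The second probeset of Npas2 was called only on day 35 (0.22 ± 0.06, adjusted p = 0.0029).

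Clock was higher on days 1, 21 and 28 and lower on day 7. On day 1 it had 7.49, 7.87 and 8.11 in bleomycin lungs, against 7.13, 7.40 and 8.10 in saline lungs, a difference of 0.40 ± 0.10 (adjusted p = 0.00145). On day 7 all 8 bleomycin lungs, at 7.75 to 8.12, lay below the saline median of 8.24, and the difference was -0.27 ± 0.10 (adjusted p = 0.0228). On day 21 all 8 bleomycin lungs lay above the saline median, and the difference was 0.38 ± 0.10 (adjusted p = 0.00198). The response differed between days (adjusted p = 3.59e-05) and was 0.38 ± 0.10 higher on days 21, 28 and 35 than on days 7 and 14 (adjusted p = 0.0014). The 4 probesets of Clock differed in their calls. 1435775_at was lower on days 2 and 7 and higher on none, and 1418659_at did not pass on day 7 (-0.06 ± 0.04, adjusted p = 0.27). On day 2, 1418660_at was lower too (-0.32 ± 0.07, adjusted p = 0.000513), and 1418659_at did not pass (adjusted p = 0.0531). On day 35, 1418660_at (0.23 ± 0.07, adjusted p = 0.0163) and 1418659_at (0.25 ± 0.04, adjusted p = 7.11e-06) were higher. The used probeset passed on neither of these days (adjusted p = 0.186 on day 2 and 0.096 on day 35). On day 28, 1418660_at was higher as the used probeset was (0.27 ± 0.07, adjusted p = 0.00628). Neither 1418659_at (0.08 ± 0.04, adjusted p = 0.172) nor 1435775_at (-0.08 ± 0.06, adjusted p = 0.379) passed on that day.

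**Figure D3:**
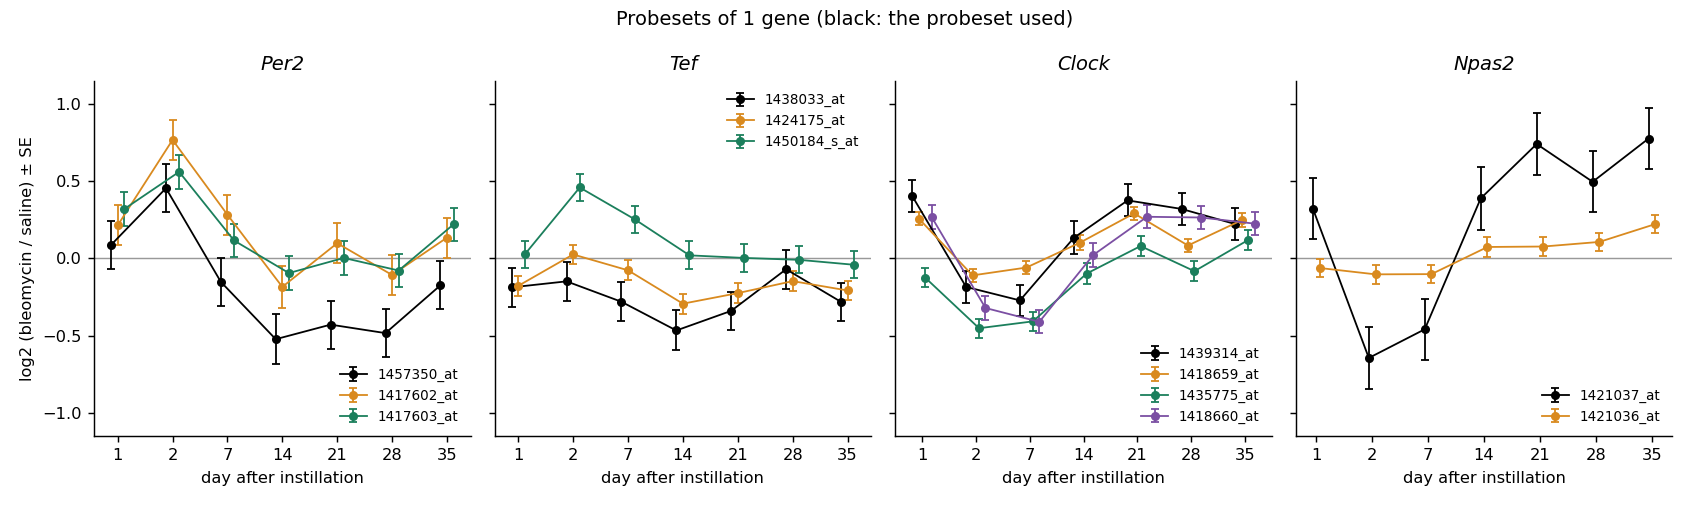
Log2 difference of bleomycin minus saline (vertical axis, with the SE as bars) against day for each probeset of Per2, Tef, Clock and Npas2, the probeset used in black. The probesets of Per2 lay together on day 2, between 0.46 and 0.77, and apart on day 21, between -0.43 and 0.10.

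The second question was whether the saline groups themselves drifted. They did: an F test over the 7 saline groups passed for 8 of the 9 clock genes, all but Nr1d1 (adjusted p = 0.169), where 54.1% of all genes passed. Per2 ranked 14th of 15707 genes by this test (adjusted p = 9.66e-16), Clock 85th and Npas2 121st. The 7 day contrasts above and these saline contrasts share the saline lungs and are not independent of each other.

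Saline day 7 stood apart most, with 6 genes lower (background 9.87%) and 2 higher (background 5.65%) than the mean of the other 6 saline days. Npas2 averaged 9.58 on saline day 7 and 8.54 over the other saline days, a difference of 1.04 ± 0.15 (adjusted p = 3.61e-07), or 2.06-fold higher. Clock was 0.58 ± 0.08 higher (adjusted p = 5.1e-08). Per2 lay on the opposite side, with a difference of -0.91 ± 0.12 (adjusted p = 1.18e-08), as did Dbp at -0.79 ± 0.12 (adjusted p = 5.33e-07) and Per3 at -0.57 ± 0.11 (adjusted p = 6.64e-05). Saline day 2 had the same signs for these genes, with 2 higher (Npas2 and Clock; background 10.4%) and 4 lower (Per1, Per2, Dbp and Nr1d2; background 7.82%).

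Saline day 21 lay on the other side. Npas2 (-0.73 ± 0.15, adjusted p = 0.000576) and Clock (-0.44 ± 0.08, adjusted p = 7.37e-05) were lower than on the other saline days (background 4.44%). Per1, Per2, Dbp and Nr1d2 were higher (background 4.37%), Per2 by 0.93 ± 0.12 (adjusted p = 1.38e-08) and Per1 by 0.72 ± 0.12 (adjusted p = 7.13e-06). On saline day 1, Per2, Per3, Dbp and Tef were higher (background 23%) and Clock was lower (background 16.6%). No clock gene was called by limma on saline days 14 and 28. At an unadjusted threshold of 0.05 none passed on day 14 and 1, Clock, was lower on day 28, and Clock was also called on day 28 with array weights. Of all genes, 0.859% were called higher and 0.465% lower on day 14, and 2.88% higher and 1.48% lower on day 28. On saline day 35, Nr1d2 was higher (background 2.62%) and Npas2 lower (background 4.96%).

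**Figure D4:**
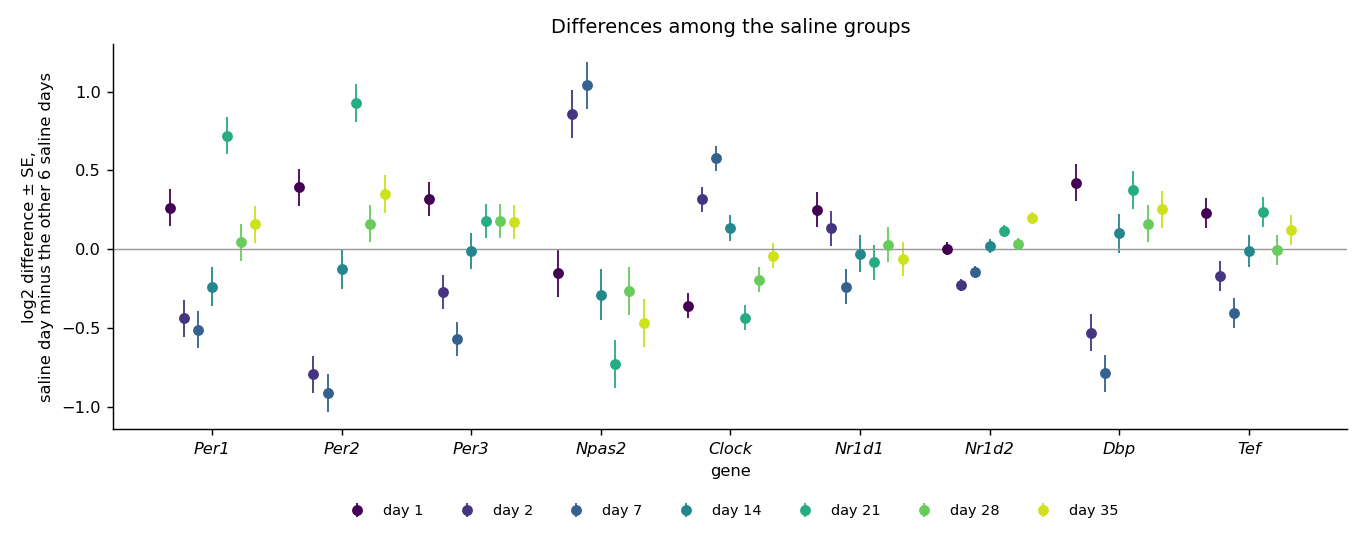
Log2 difference between each saline day and the mean of the other 6 saline days (vertical axis, with the SE as bars) for each clock gene. Days 2 and 7 lay above 0 for Npas2 and Clock and below 0 for Per1, Per2, Per3, Dbp and Tef, and day 21 lay on the opposite side for each of these genes.

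Bleomycin lungs moved over the days too, but not to the same extent for every gene. The day means of Npas2 spanned 1.27-fold among bleomycin groups and 2.86-fold among saline groups, and those of Clock 1.19-fold and 1.82-fold. For Per2 they spanned 2.57-fold among bleomycin groups and 2.99-fold among saline groups, and for Tef 1.56-fold and 1.47-fold. Over the 7 days, bleomycin and saline means of a gene correlated at 0.83 for Nr1d1, 0.79 for Per2, 0.75 for Dbp and 0.23 for Npas2. These are descriptions over 7 points that share their day of collection.

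The choice of control therefore mattered for these genes. All 55 saline lungs were also used as control in place of those of the same day. Of the 63 differences, 6 then turned their sign and were called with at least 1 of both controls. These were Per2 on days 2 and 21, Npas2 on days 2 and 7, Clock on day 7 and Nr1d2 on day 2. Some differences called with neither control turned their sign too and are not counted here. Npas2 on day 7 was then at 0.43 in place of -0.46, and Per2 on day 21 at 0.36 in place of -0.43. The count of lower genes became 5 in place of 2 on day 2 and 7 in place of 4 on day 7, but 2 in place of 3 on day 1, 2 in place of 6 on day 21 and 2 in place of 4 on days 28 and 35. All 6 higher calls were lost, and 1 was gained, Clock on day 14. Whether the hour of collection, the animals or the handling of a day moved with the saline groups was not tested.

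A list of 18 other clock genes was set beside the members, of which 16 were measured. Arntl, the gene of BMAL1, turned its sign as Npas2 did: it was lower on day 2 (-0.70 ± 0.17, adjusted p = 0.000669) and day 7 (-0.79 ± 0.17, adjusted p = 4.02e-05) and higher on day 21 (0.48 ± 0.17, adjusted p = 0.0158) and day 35 (0.75 ± 0.17, adjusted p = 0.000276). Its saline day means spanned 4.01-fold, with 9.64 on day 7 and 7.64 on day 21, while its bleomycin means spanned 1.66-fold. Cry2, a repressor that acts with the PER proteins, was lower on every day but 28, by -0.50 ± 0.07 on day 14 (adjusted p = 1.97e-08). Its relative Cry1 was higher on days 1, 2 and 7, by 0.99 ± 0.09 on day 2 (adjusted p = 3.43e-14). On saline day 2 Cry1 lay below the other saline days (-0.77 ± 0.07, adjusted p = 2.93e-14). Cry2 did not pass on saline day 14 (-0.15 ± 0.06, adjusted p = 0.199). The F test over the saline groups passed for 12 of the 16 genes (background 54.1%).

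Hlf, the third D-box activator beside Dbp and Tef, was lower on days 14, 21, 28 and 35, by -0.71 ± 0.14 on day 14 (adjusted p = 1.16e-05), and higher on day 2 (0.42 ± 0.13, adjusted p = 0.0105). Nfil3, which represses through the same D-box, was higher on days 1, 2, 14, 21 and 35, by 0.96 ± 0.23 on day 35 (adjusted p = 0.000651). Bhlhe40, an E-box repressor, was higher on every day but day 1, by 0.85 ± 0.09 on day 7 (adjusted p = 6.08e-14). Against the other saline days, Hlf was lower on saline day 2 (-0.72 ± 0.10, adjusted p = 1.94e-07) and Bhlhe40 on saline day 7 (-0.35 ± 0.07, adjusted p = 7.85e-05). Hlf on saline day 14 (0.00 ± 0.11, adjusted p = 0.996) and Nfil3 on saline day 35 (-0.27 ± 0.17, adjusted p = 0.372) did not pass. Counted by day from 1 to 35, 3, 6, 6, 5, 3, 2 and 3 of the 16 genes were higher and 1, 3, 3, 5, 4, 1 and 3 were lower. By day, 11.5% to 25.7% of all genes were higher and 11.8% to 21.9% lower, so counts such as 3 or 2 of 16 lie near the background. The list's median lay between -0.05 and 0.10 on every day, so its members did not move one way.

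Levels also varied together between lungs of 1 group. With each day's mean removed, the genes whose levels followed Dbp most closely over the 55 saline lungs were Sphk2 (r = 0.98), Nr1d1 (0.86), Per3 (0.79), Hlf (0.79), Nr1d2 (0.73), Tef (0.71), Bhlhe41 (0.69) and Ankrd12 (0.69). Sphk2 (chr7:45709463-45718002) shares 741 bases with Dbp (chr7:45705100-45710203), and which of both genes its probeset reads was not settled. Arntl was the gene with the lowest r of all 15707 (-0.72), and Nfil3 was among the 8 lowest (-0.61). Over the 56 bleomycin lungs the same measure gave 0.87 for Nr1d1, 0.75 for Per3 and -0.70 for Arntl. Per3 followed Tef more closely than Dbp, at 0.87 over saline and 0.86 over bleomycin lungs. Per1 and Per2 stood apart from Dbp, at -0.16 and 0.29 over saline lungs, but followed each other (0.67 over saline and 0.70 over bleomycin lungs). Within saline groups Dbp varied most on days 2 and 7, with an SD of 0.38 and 0.49, against 0.13 to 0.19 on the other days. For Arntl the SD was 0.66 and 0.47 on days 2 and 7, against 0.11 to 0.28. The r over saline lungs therefore rests mostly on lungs of these days. All lungs of a group share their day of collection, and no test was made of these values.

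For Npas2 the closest genes over saline lungs were Gjb2 (r = 0.76), Echdc3 (0.70), Rbm47 (0.69) and Arntl (0.69). Npas2 varied most within saline days 1, 2 and 7, with an SD of 0.52 to 0.60, against 0.18 to 0.20 on the other saline days. Over bleomycin lungs Arntl stayed close, at 0.84, and Echdc3 did not, at 0.02. Clock did not follow Npas2 between lungs of 1 group, at -0.22 over saline and -0.09 over bleomycin lungs, although both had their highest saline mean on day 7 and their lowest on day 21.

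**Figure D5:**
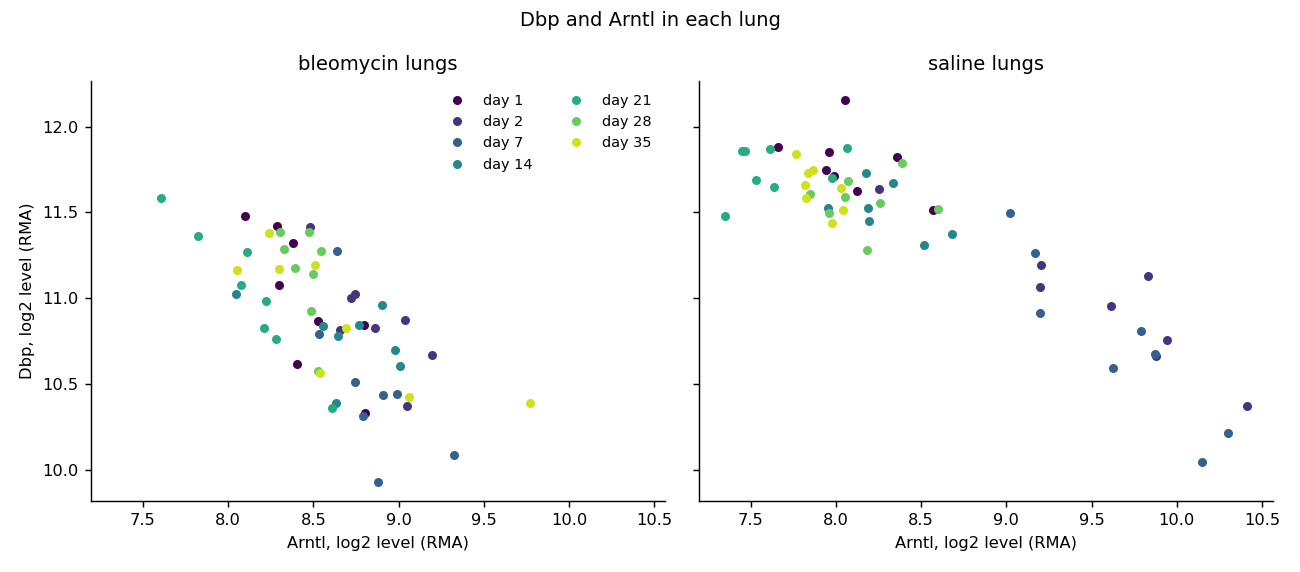
Log2 RMA level of Dbp (vertical axis) against that of Arntl (horizontal axis) in each of 56 bleomycin lungs (left) and 55 saline lungs (right), coloured by day. In saline lungs the day 7 mice lie at Arntl levels of 9.02 to 10.30 and all mice of days 1, 14, 21, 28 and 35 at 7.35 to 8.68, and no bleomycin mouse but 1 of day 35, at 9.77, lies above 9.33.

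Genes that the clock is known to drive, or that follow its hour in many tissues, were taken as a list of 9, of which 8 were measured. From day 1 to day 35, 3, 5, 5, 6, 4, 3 and 4 were higher and 1, 0, 1, 2, 2, 1 and 1 were lower, against 11.5% to 25.7% of all genes higher and 11.8% to 21.9% lower, so the lower counts lie near the background. Usp2, a deubiquitinase under direct control of CLOCK and BMAL1, was lower on days 1, 14, 21 and 35, by -0.67 ± 0.14 on day 21 (adjusted p = 4.44e-05). Noct, the gene of the rhythmic phosphatase nocturnin, was higher on every day but 28, by 0.61 ± 0.13 on day 7 (adjusted p = 7.51e-05). Against the other saline days, Usp2 was higher on saline day 21 (0.82 ± 0.11, adjusted p = 1.41e-08). Noct did not pass on saline day 7 (0.02 ± 0.10, adjusted p = 0.912). The median of the list was highest on day 7, at 0.52.

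Glucocorticoids and body temperature both act on clock genes, so genes that follow each were counted too. Of 11 glucocorticoid-induced genes, 4, 2, 3, 4, 2, 1 and 2 were higher by day and 0, 0, 2, 1, 1, 0 and 0 were lower, which on most days is close to or below the share of all genes (11.5% to 25.7% higher and 11.8% to 21.9% lower). Fkbp5, a chaperone partner of the glucocorticoid receptor, was higher on day 7 by 1.5 ± 0.20 (adjusted p = 6.86e-10), whereas Klf9 was lower by -0.56 ± 0.13 (adjusted p = 0.000204). On saline day 7 Fkbp5 lay below the other saline days (-0.57 ± 0.15, adjusted p = 0.00587), and Klf9 did not pass (-0.12 ± 0.10, adjusted p = 0.49). Of 5 temperature-responsive genes, 2, 0, 0, 0, 2, 0 and 1 were higher by day and 1, 1, 0, 1, 1, 0 and 1 were lower. By day, 11.5% to 25.7% of all genes were higher and 11.8% to 21.9% lower, so 1 of 5 lies near the background. The higher calls were those of the heat shock genes Hsph1 on days 1, 21 and 35, by 0.91 ± 0.29 on day 1 (adjusted p = 0.00975), and Dnajb1 on days 1 and 21, by 0.75 ± 0.21 on day 1 (adjusted p = 0.00383). Cirbp, which is induced by cold, was lower on days 1, 2, 14, 21 and 35, by -0.75 ± 0.12 on day 2 (adjusted p = 7.97e-07). On saline day 1 Hsph1 lay below the other saline days (-0.54 ± 0.22, adjusted p = 0.0412), and Dnajb1 did not pass (-0.33 ± 0.16, adjusted p = 0.0912). Cirbp did not pass on saline day 2 (-0.25 ± 0.09, adjusted p = 0.0521). The part of either in the clock values was not tested.

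Marker genes of lung cell types also differed between bleomycin and saline lungs on the same days. On day 14, when 21.9% of all genes were higher and 19.7% lower, 6 of 8 macrophage markers were higher (mean level of the list 11.56 to 12.02 over bleomycin lungs, against 10.88 to 11.03 over saline lungs) and 5 of 6 endothelial markers were lower (11.38 to 11.72 against 11.84 to 12.03). All 4 markers of alveolar type II cells, all 3 of club cells and all 3 of B cells were lower too, and 2 of 2 of dividing cells were higher. Of 5 fibroblast markers 3 were higher and 2 lower, and of 4 neutrophil markers 1 was higher and 2 lower. Adipose tissue had 2 of 3 lower and cardiac muscle 2 of 5. Alveolar type I cells had 1 of 4 higher and 1 lower, and T cells 1 of 5 higher. On day 1, when Dbp and Nr1d1 were already lower and 14.7% of all genes were higher and 16.7% lower, 1 of 8 macrophage markers was higher and 1 lower (10.85 to 11.23 against 10.31 to 10.94), and 0 of 6 endothelial markers was higher and 1 lower (11.83 to 11.96 against 11.80 to 11.97). Some airway and alveolar markers were called lower on day 1 as well: all 3 of club cells (Scgb1a1, Scgb3a2 and Cyp2f2; mean level 13.91 to 14.14 over bleomycin lungs, against 14.14 to 14.29 over saline lungs), 2 of 4 of alveolar type II cells (Sftpc and Sftpb; 12.50 to 12.65 against 12.59 to 12.72), 2 of 4 of ciliated cells (Tekt1 and Dnah5; 9.30 to 9.91 against 9.12 to 10.19) and 1 of 4 of alveolar type I cells (Aqp5; 13.16 to 13.31 against 13.20 to 13.37). Bub1, 1 of 2 markers of dividing cells, and Cidec, 1 of 3 of adipose tissue, were lower too. With 16.7% of all genes lower on day 1, counts of 1 in these short lists lie near the background. The ciliated range over bleomycin lungs lay within that over saline lungs. The part of any of these in the differences of clock genes was not tested.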

How the data were processed

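The authors hybridised lung RNA, amplified with the NuGEN Ovation kit, to Affymetrix whole-genome mouse arrays, remapped the probes to the mouse genome (build not given in the sources used here), dropped probes without a unique place, and deposited RMA-normalized log2 intensities of 111 arrays (2.75 to 14.69, array medians 8.61 to 8.73). The number of arrays limits the precision. From these values, each gene kept the most variable of its probesets, out of 27871 annotated to 1 gene. Of 32688 probesets, 314 had several genes and 4503 no listed gene. All 14 groups entered 1 limma 3.58.1 fit (R 4.3.3) with moderated tests, with Benjamini-Hochberg adjustment within each contrast across 15707 genes. Further tests were F tests over the saline groups and over the day contrasts, and contrasts of each saline day with the other 6. Correlations between genes were taken over levels minus their day mean. Named genes were all members, at most 4 per direction and day of each list by size of change, the 8 genes most and the 8 least like Dbp or Npas2, and any other clock gene. The members and lists were chosen with earlier results of these data known.

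Alternatives changed the probeset, the genes tested, the normalization, the array weights, the control lungs, the threshold and the arrays used. Samples with the same day and replicate number did not deviate together throughout, and nothing in the labels pairs them. Each array came from another mouse. Python 3.11.15, pandas 2.3.3, numpy 2.4.6 and matplotlib 3.10.9 were used for tables and figures.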

Additional observations from a re-analysis of the deposited data

Results flagged for a closer look

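In 8 of 126 groups of a clock gene, treatment and day, 1 lung lay far from the others, and chance alone gives about 1 in 20. Per1 was 10.323 in the third bleomycin lung of day 35, against 10.90 to 11.294 in the other 7. Npas2 was 9.353 in the seventh bleomycin lung of day 1 (others 8.587 to 8.921) and 7.781 in the fifth of day 2 (others 8.59 to 9.29). Nr1d2 was 12.926 in the eighth bleomycin lung of day 14 (others 12.686 to 12.79) and 12.701 in the eighth of day 28 (others 12.857 to 12.987). Among saline lungs, Per2 was 8.828 in the second of day 28 (others 9.391 to 9.769), Clock was 8.102 in the seventh of day 1 (others 7.133 to 7.557) and Nr1d2 was 13.121 in the first of day 21 (others 13.014 to 13.057).

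The difference between bleomycin and saline lungs itself differed between days for 6 of the 9 genes by limma's F test, as it did for 48% of all genes. The adjusted p was 5.66e-06 for Npas2, 3.59e-05 for Clock, 0.000687 for Per2, 0.0157 for Dbp, 0.0252 for Nr1d2 and 0.0279 for Per1. Because saline lungs drifted over the days, a change in the response and a change in the saline level enter this test together and cannot be told apart by it.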

How the results depend on the processing

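Counts are given as higher and lower of the 9 genes. With all saline lungs as control, 0 were higher on days 1, 2, 21, 28 and 35 and 1 on day 14, and 5 were lower on day 2, 7 on day 7, 2 on day 21, 2 on day 28 and 2 on day 35. Among differences called with at least 1 of both controls, the sign turned in that setting for Per2 on day 2 (-0.23) and day 21 (0.36). It also turned for Npas2 on day 2 (0.087) and day 7 (0.43), Clock on day 7 (0.22) and Nr1d2 on day 2 (-0.14). Some differences called with neither control turned their sign too. With the probeset of the highest mean level the sign turned for Per2 on day 21 (0.10), a difference called in the main fit. Without a call by either probeset it turned for Per2 on day 7 (0.28 in place of -0.15) and day 35 (0.13 in place of -0.17). The same held on day 2 for Per3 (0.13 in place of -0.10) and Tef (0.03 in place of -0.15). With a fold over 1.5 also required, 0 were higher on days 1, 2 and 28 and 1 on day 21, and 1 was lower on day 7, 2 on day 14, 3 on day 21, 0 on day 28 and 2 on day 35. With a fold over 2, the count was 0 in both directions on every day. At an adjusted p under 0.01, 0 were higher on days 2 and 28, and 1 was lower on day 7, 3 on day 21 and 2 on day 28. In a separate fit of each day, 1 was lower on day 2 and 2 on day 7, and 1 was higher on day 14, 2 on day 28 and 2 on day 35. On day 28, 2 were higher with the mean of all probesets, without the 30% dimmest genes, after quantile normalization, after subtraction of array medians and with array weights, and 0 with the probeset of the highest mean level. On day 35, 2 were higher with the mean of all probesets and with that of the highest mean level, and on day 14, 1 was higher with array weights. The cause of these changes was not tested. Leaving out single arrays that correlated least with their group gave 2 to 5 lower genes on day 7, with 2 (Clock and Nr1d1) without the third saline array of that day, and 3 to 4 on day 35, with 3 without the third bleomycin array. The saline array and the fourth bleomycin array of day 21 were chosen for this after seeing the data, and not every array was left out in turn. The replicate number as a block moved none of the 20 counts. Over 55 pairs of equal number the correlation of deviations ran from -0.328 to 0.408 with a median of 0.0601, and 23 exceeded 0.1, so the numbers do not pair the lungs. Under this block Npas2 on day 7 lost its call (adjusted p = 0.0514) and Tef on day 7 gained one (adjusted p = 0.0476).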
